A study of Mus musculus with 4 samples.

Results

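Broad open regions are described here in MPP3 cells, a myeloid-biased class of multipotent blood progenitors in mouse bone marrow. They were chosen by peak width. Peaks of the 4 deposited peak lists on chromosomes 1 to 19, X and Y that shared at least 1 bp were joined into regions, and a region was kept where each list had a peak of at least 1500 bp in it. This gave 486 regions of 77914 joined regions, or of 44274 regions with a peak in all 4 lists, called shared regions below. The width of these regions is therefore a property they were selected on, and it is given as a description.

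The study asked about the role of the transcription factor Bcl11a in MPP3 function, and this series holds ATAC-seq of MPP3 cells from bone marrow of WT-iMOS mice aged 3 months. ATAC-seq marks open chromatin by where a transposase can insert sequencing adapters. Cells were sorted by flow cytometry, and the libraries form 2 groups, T2 (genotype label WTiMOS_T2) and T1 (genotype label WTiMOS_T1), with 2 libraries in each. All 4 libraries share the WT-iMOS background, the age, the tissue and the cell type. What the names T1 and T2 stand for is not stated in the labels, nor how many animals gave a library, nor whether the replicates came from separate animals. Titles number the libraries of a group as replicates 1 and 2, while the names of the deposited files number them 1 and 2 within a single replicate, so the p-values measure only the spread between these samples, which may be technical.

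Nucleosomes wrap most of the genome and keep transposase and transcription factors out, and gaps between them open at gene starts and at enhancers. A peak caller draws a peak around each gap, so most peaks are narrow, and a broad peak means that insertions stayed above the background over a longer stretch. In mammals many gene starts lie in CpG islands, stretches rich in G and C in which the CpG dinucleotide has not been lost, and CpG islands are known to be open in most cell types. Width as a peak caller draws it also depends on sequencing depth, which is unknown here.

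The lists held 66764 and 62704 peaks in T2 replicates 1 and 2, against 58454 and 54045 in T1. Peaks of at least 1500 bp numbered 1429 and 1000 in T2 and 1192 and 747 in T1, that is 1214.5 ± 303 in T2 and 969.5 ± 315 in T1 (SD, n = 2 each; exact permutation test, two-sided, p = 0.667, smallest possible 0.33). Replicate 1 had more of them than replicate 2 in both groups, and the groups overlapped. Among markers of haematopoietic progenitors, 8 of the 9 whose start could be placed had a peak there in all 4 lists, and 2, Cebpa and Runx1, lay in a broad region. The start of Mpo, the myeloperoxidase gene of early granulocytes, had a peak in 2 lists. Of the megakaryocyte markers, Pf4, Gp9 and Itga2b had a peak in all 4 lists and none was broad. Starts of the B cell genes Cd79a and Pax5, the T cell genes Cd3e and Cd3d, the erythroid genes Klf1 and Alas2, the stromal gene Pdgfra and the neural gene Pax6 had a peak in no list. The T cell gene Lck and the stromal gene Cxcl12 had a peak in 3 lists, the endothelial gene Tek in 2, and the epithelial gene Epcam and the neural gene Sox2 in 1 each. No marker of these other cell types lay in a broad region, and the part that other cells play in the results was not tested.

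The promoter sequences below show the CpG content of the widest and best known members, and promoters that lack it. They run from 250 bases before to 50 bases after the gene start, 5′ to 3′ on the gene's strand, and come from RefSeq (GRCm38.p6). Capitals mark CpG dinucleotides. Tgif1, Plxnc1 and Hnrnpl are the widest members that hold a placed gene start and are named by a gene that is no predicted model. A wider member at the predicted genes LOC108167694 and 4930526I15Rik is in the promoter table too and is not printed. Runx1 and Cebpa are the haematopoietic transcription factors among the members. Lpar6 has the lowest CpG content of all broad promoters, and Mpo is a progenitor marker outside the broad regions. Lpar6 and Mpo were chosen after their values were seen.
Tgif1, chr17:70853483-70853782, minus strand: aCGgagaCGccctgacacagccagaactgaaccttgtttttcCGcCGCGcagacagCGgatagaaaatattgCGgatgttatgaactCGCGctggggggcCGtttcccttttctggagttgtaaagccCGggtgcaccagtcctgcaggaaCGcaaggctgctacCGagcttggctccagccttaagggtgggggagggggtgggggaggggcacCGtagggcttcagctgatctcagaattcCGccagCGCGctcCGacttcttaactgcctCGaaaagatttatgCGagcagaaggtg
Plxnc1, chr10:94944796-94945095, minus strand: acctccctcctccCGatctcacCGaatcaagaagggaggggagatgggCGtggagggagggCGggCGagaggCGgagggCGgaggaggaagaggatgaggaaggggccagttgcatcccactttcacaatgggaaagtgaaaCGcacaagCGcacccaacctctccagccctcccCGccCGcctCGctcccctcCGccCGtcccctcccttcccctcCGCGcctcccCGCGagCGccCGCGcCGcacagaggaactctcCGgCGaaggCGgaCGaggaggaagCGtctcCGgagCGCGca
Hnrnpl, chr7:28810640-28810939, plus strand: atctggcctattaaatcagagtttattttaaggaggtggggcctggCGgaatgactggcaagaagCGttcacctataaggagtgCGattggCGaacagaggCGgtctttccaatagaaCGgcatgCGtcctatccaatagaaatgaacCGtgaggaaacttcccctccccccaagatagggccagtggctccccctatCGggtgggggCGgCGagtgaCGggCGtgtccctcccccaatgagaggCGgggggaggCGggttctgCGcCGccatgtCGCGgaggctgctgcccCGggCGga
Runx1, chr16:92697280-92697579, minus strand: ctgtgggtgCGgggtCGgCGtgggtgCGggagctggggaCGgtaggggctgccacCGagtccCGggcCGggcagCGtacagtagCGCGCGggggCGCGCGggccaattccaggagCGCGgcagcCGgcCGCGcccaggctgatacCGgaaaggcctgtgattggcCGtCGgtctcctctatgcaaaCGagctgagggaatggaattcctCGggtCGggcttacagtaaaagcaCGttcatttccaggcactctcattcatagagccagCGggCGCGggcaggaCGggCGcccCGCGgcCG
Cebpa, chr7:35119043-35119342, plus strand: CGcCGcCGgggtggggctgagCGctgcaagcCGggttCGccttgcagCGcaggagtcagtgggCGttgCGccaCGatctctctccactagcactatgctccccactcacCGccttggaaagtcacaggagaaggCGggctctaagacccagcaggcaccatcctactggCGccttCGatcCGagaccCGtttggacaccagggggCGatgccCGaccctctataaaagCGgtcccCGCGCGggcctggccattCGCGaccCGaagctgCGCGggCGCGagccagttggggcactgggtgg
Lpar6, chr14:73237641-73237940, plus strand: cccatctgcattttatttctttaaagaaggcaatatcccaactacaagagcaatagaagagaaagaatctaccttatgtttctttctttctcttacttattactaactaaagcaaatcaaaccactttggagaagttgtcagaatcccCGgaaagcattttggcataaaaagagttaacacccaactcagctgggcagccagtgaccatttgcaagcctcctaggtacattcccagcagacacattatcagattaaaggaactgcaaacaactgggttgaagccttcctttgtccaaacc
Mpo, chr11:87793534-87793833, plus strand: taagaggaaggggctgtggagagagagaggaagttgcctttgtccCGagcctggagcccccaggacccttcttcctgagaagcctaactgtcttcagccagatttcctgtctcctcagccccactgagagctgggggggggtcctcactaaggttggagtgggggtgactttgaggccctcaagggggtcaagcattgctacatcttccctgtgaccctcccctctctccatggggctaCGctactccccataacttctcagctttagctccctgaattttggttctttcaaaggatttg
Tgif1 has 20 CpG in these 300 bases, Plxnc1 30, Hnrnpl 21, Runx1 35 and Cebpa 29. Lpar6, which codes for a receptor of lysophosphatidic acid, has 1, and Mpo has 2. The first 5 sequences thus carry CpG along most of their length, and the last pair carry almost none, although the Lpar6 region passed 1500 bp in all 4 libraries.

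The 15 widest members, ordered by the narrowest of their 4 widths, spanned from 2264 bp upward, and 11 of them hold a placed gene start. Starts could not be assessed at Nr3c1 and Gm36315, which lie on chromosome 18, and the start of LOC102634078 could not be placed. In every such list of widths below, replicate 1 stands before replicate 2. The widest of all measured 3362 and 3349 bp in T2 and 3359 and 3356 bp in T1. It lies on chromosome 17 from 39843328 to 39846689 and overlaps Rn18s-rs5, a ribosomal RNA pseudogene, with AY036118 as the nearest gene at a distance of 1423 bp. Its width hardly varied between libraries. Its summits stood only 3.15 and 3.29 times above the local background in T2 and 2.95 and 3.01 times in T1. Their median of 3.08 was the lowest of all 486 members. Its significance (−log10 q) was nevertheless high, at 429 and 349 in T2 and 518 and 406 in T1. Member medians of this measure were 87.0 and 70.2 in T2 and 87.4 and 67.4 in T1. The next, on chromosome 9 at the predicted genes LOC108167694 and 4930526I15Rik, measured 3393 and 3298 bp in T2 and 3338 and 3318 bp in T1. After it came a region inside Nipbl, the gene of the cohesin loader, and at an end of the predicted gene LOC102634078, with 3176 and 3115 bp in T2 and 3035 and 3054 bp in T1. The groups overlapped at the chromosome 9 region, and at the Nipbl region both T2 libraries were wider than both T1 libraries.

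Genes of transcription factors and signalling proteins followed. Tgif1, a homeobox repressor of TGF-β signalling, had 2823 and 2730 bp in T2 and 2780 and 2939 bp in T1. Its relative Tgif2 had 2663 and 2445 bp in T2 and 2268 and 2500 bp in T1. Both overlapped between the groups. Inside Nr3c1, the glucocorticoid receptor gene on chromosome 18, a region measured 2757 and 2693 bp in T2 and 2641 and 2700 bp in T1. At Sp3, which codes for a factor that binds GC boxes, the widths were 2444 and 2444 bp in T2 and 2427 and 2411 bp in T1 and the 4 libraries lay close together, T2 being wider. Zmiz1, a transcriptional coactivator gene, had 2365 and 2417 bp in T2 and 2483 and 2435 bp in T1, both T1 libraries being wider. Crlf2, which codes for a subunit of the TSLP receptor, had 2290 and 2270 bp in T2 and 2656 and 2264 bp in T1, where T1 replicate 1 stood apart from the other 3. Plxnc1, a semaphorin receptor gene, had 2966 and 2944 bp in T2 and 2729 and 2615 bp in T1, and was wider in both T2 libraries. Vim, the gene of the filament protein vimentin, had 2276 and 2314 bp in T2 and 2325 and 2421 bp in T1. Tagln2, an actin-binding protein gene, had 2418 and 2413 bp in T2 and 2426 and 2489 bp in T1, and both of these genes were wider in both T1 libraries. Hnrnpl, a splicing regulator gene, had 2703 and 2670 bp in T2, which lay between the 2940 and 2556 bp of T1. The last pair, Cdc14a, a phosphatase gene, and the predicted gene Gm36315 on chromosome 18, had 2367 to 2424 bp and 2567 to 2691 bp over the 4 libraries. Of the 15, 4 were wider in both T2 libraries, 3 in both T1 libraries and 8 overlapped. Over all shared regions, 29.7% were wider in both T2 libraries and 10.4% in both T1 libraries.

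**Figure D1:**
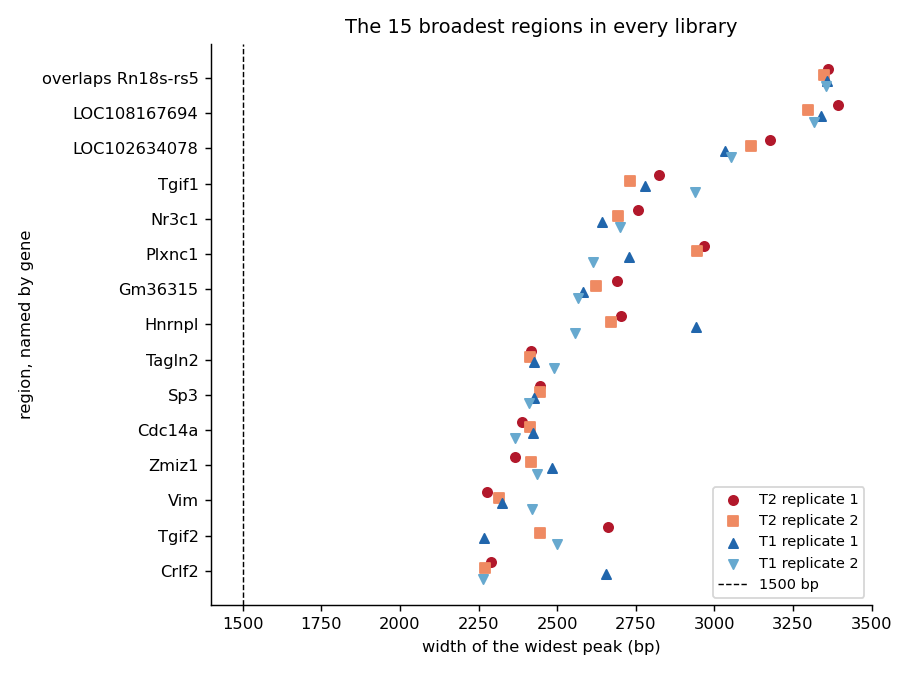
Width of the widest peak (bp, x axis) in each of the 4 libraries for the 15 broadest regions, ordered by the narrowest of the 4 widths, with T2 and T1 libraries as separate markers. The markers of a region lie close together for the widest, at 3349 to 3362 bp, and spread for Hnrnpl and Crlf2, where T1 replicate 1 stands apart at 2940 and 2656 bp.

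Such regions are few, and many shared regions lay just under the limit of 1500 bp. Counted by the narrowest of the 4 widths, 177 members measured 1500 bp to below 1600 bp, 259 up to 2000 bp, 42 up to 2500 bp and 8 at least 2500 bp, against 276 shared regions of 1400 bp to below 1500 bp. Just inside the limit were Dglucy, with a narrowest width of 1500 bp, Hlx, a homeobox gene, with 1502 bp, and a predicted gene with 1502 bp. Just outside were a region inside Rhbdl3 and one at Ltk, a receptor tyrosine kinase gene, each with 1499 bp, and Hnrnpk, an RNA-binding protein gene, with 1498 bp. Kit, the stem cell factor receptor, missed it through a single library, with 1523 and 1502 bp in T2 and 1516 and 1400 bp in T1. In 1876 regions at least 1 list had a peak of 1500 bp or more, and 689 of these had it in 1 list, 368 in 2 and 333 in 3. Members took 34.0% and 48.6% of all such peaks in T2, against 40.8% and 65.1% in T1, highest in the list with the fewest of them. In 26 members at least 1 list had the region split into more than 1 peak.

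Peak strength, which comes from the same peak call as width, was high by significance and ordinary by fold. The median member stood at the 85.7 and 84.2 percentile of −log10 q in the T2 lists and at the 85.6 and 84.3 percentile in the T1 lists. By fold over local background it stood at the 53.6 and 53.1 percentile in T2 and at the 53.3 and 53.6 percentile in T1. The median fold of members was 9.06 and 9.25 in T2 and 9.42 and 9.58 in T1, against 8.59 and 8.87 (T2) and 8.99 and 9.15 (T1) over all peaks of the same lists. The summits of broad regions were thus about as high above their surroundings as those of other peaks, in all 4 libraries.

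Broad regions lay mostly at gene starts. Off chromosome 18, whose starts were not used here, 341 of 467 members held a gene start, or 73.0% (95% Wilson interval 68.8 to 76.8%), against 24.1% of 42483 other shared regions. A further 72 held a gene end while the start of that gene could not be placed, 38 lay in a gene body, 14 had a nearest gene within 50 kb and 2 had none. A broad region covers more bases and so can hold a start by its length alone. The share with a start within 500 bp of the centre, which does not grow with width in this way, was 57.8% for members and 23.8% for other shared regions. By narrowest width, the share of shared regions that hold a start was 4.37% below 250 bp, 27.8% from 500 to below 750 bp and 56.0% from 750 to below 1000 bp. It was 68.0% to 76.5% in the 5 classes above, of which the top 3 are the members. The share with a start near the centre was highest, at 64.8%, in the class that starts at 1000 bp, and was 46.8% in the 47 regions of at least 2000 bp. Regions with starts on both strands made up 27.0% of members with a start (92 of 341), against 14.5% of other shared regions with a start. Starts of several genes fell in 28.2% of members and 14.9% of the others, counts that also grow with width. A protein-coding gene started in 96.2% of members with a start, against 91.0% of the others.

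**Figure D2:**
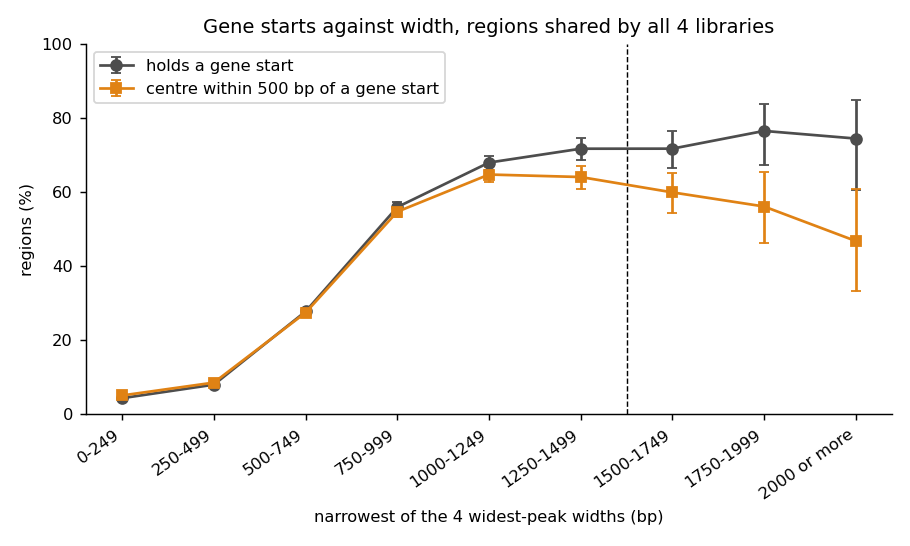
Share of shared regions (percent, y axis) that hold a gene start, and share with a start within 500 bp of the centre, by the narrowest of the 4 widths (bp, x axis), with 95% Wilson intervals as bars. Both shares climb up to the class that starts at 1000 bp and then part, the first lying between 71.7 and 76.5% and the second at 46.8% in the widest class.

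Measured from the furthest upstream start in a region, the broad regions reached further into the gene than upstream of that start. This reference lengthens the downstream side where a region holds several starts. That was so in 41.1% of members with a start and in 22.9% of other shared regions with a start. The part of this choice in the extents and summit distances was not tested. In 249 members with starts on 1 strand, the median extent upstream was 749 and 713 bp in T2 and 687 and 657 bp in T1, and downstream 1069 and 1069 bp in T2 and 1055 and 1030 bp in T1. Between 63.5% and 65.9% of these members, depending on the library, extended further downstream. The same held for 62.8% to 64.3% of the 8745 other shared regions around such starts, a share close to that of the members. The strongest point of the peak lay upstream in the median, at −66 and −69 bp in T2 and −62 and −46 bp in T1, against −14 to −16 bp in the other shared regions. Extent is measured on the widest peak of the region, which in a few members does not reach the start.

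**Figure D3:**
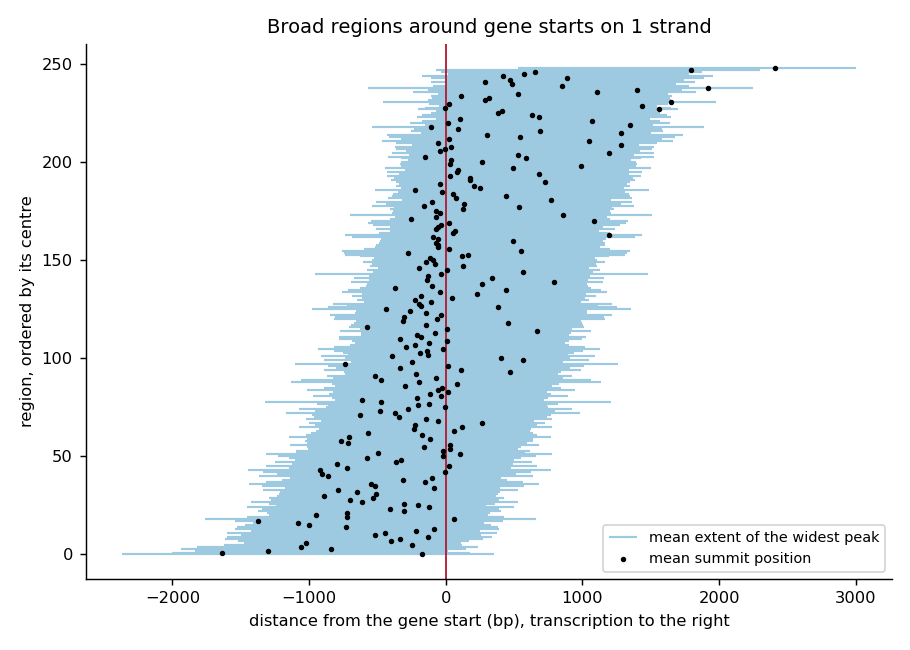
Extent of each of 249 broad regions around a gene start on 1 strand, averaged over the 4 libraries, with 1 horizontal line per region. The x axis gives the distance (bp, negative upstream) from the furthest upstream start in the region. More lines are longer to the right of the start than to the left, and a few do not cross it because the widest peak lies beside the start.

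Some broad regions marked a start inside a gene and not its outermost one. Of 378 protein-coding genes with a start in a broad region, 61 (16.1%) had that start more than 1000 bp inside the gene, against 14.8% of 10057 genes with a start in another shared region. Runx1, a transcription factor gene needed for the first blood stem cells, has a distal and a proximal promoter. Its proximal start, 128.745 kb inside the gene, was broad with 2312 and 1729 bp in T2 and 2222 and 1650 bp in T1. Replicate 2 had 2 peaks in that region in both groups, and replicate 1 had a single wider one. The distal start had 944 and 851 bp in T2 and 766 and 658 bp in T1, less than the proximal start in every library. At Dnmt3a, a DNA methyltransferase gene, the start 90.185 kb inside was broad, with 2296 and 2154 bp in T2 and 2194 and 2024 bp in T1. The outer of its placed starts, themselves 5.421 and 5.601 kb inside the gene, share a region. That region had 1111 and 1029 bp in T2 and 2312 and 934 bp in T1, where T1 replicate 1 alone passed 1500 bp. At Gnas, the gene of a stimulatory G protein subunit, the innermost of the placed starts, 45.686 kb inside, had 1836 and 1902 bp in T2 and 1942 and 1808 bp in T1.

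Grouped by function, the list genes with a broad start were spread over 9 of 20 lists, with at most 4 in any list. Over all protein-coding genes with a placed start, 2.16% (378 of 17491) lay in a broad region and 57.6% in any shared region. Of 434 genes in 20 lists, 338 had a placed start, 260 a shared region there and 17 a broad one (5.03% of the placed). The lists were drawn up with earlier results of these data known, so their shares are descriptions. Ubiquitin and stress genes had 2 of 10, Ubb and Ddit3. Splicing and RNA-binding genes had 4 of 26, Hnrnpl, Hnrnpa2b1, Srsf6 and Srsf2. Chromatin regulators had 4 of 27, Dnmt3a, Kmt2a, Arid1b and Ep300, and haematopoietic transcription factors 2 of 27, Runx1 and Cebpa. The long non-coding RNA list had 1 of 8, cytokine feedback genes 1 of 14, small GTPase and cytoskeleton genes 1 of 17, cell cycle genes 1 of 19 and housekeeping genes 1 of 20. The other 11 lists had none, among them 20 ribosomal protein genes, 23 immediate early genes, 18 sorting and cytokine receptor genes, 16 neutrophil and monocyte genes, 12 HOX genes and 19 developmental regulators of other tissues.

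Widths below the limit gave a fuller order of the lists. Where a list gene had a shared region at its start, the median narrowest width was 1220.5 bp for splicing genes, 1178.5 bp for ubiquitin and stress genes, 1174 bp for cytokine feedback genes and 1038 bp for chromatin regulators. Over all protein-coding genes it was 811 bp. Haematopoietic transcription factors stood near that value with 860 bp, and ribosomal protein genes, which are highly transcribed in most cells, below it with 786.5 bp. Among lineage genes that had such a region, the 5 erythroid and megakaryocyte genes had a median of 861 bp, the 3 neutrophil and monocyte genes 453 bp and the 5 B, T and NK genes 422 bp. At a minimum of 1000 bp, 19 of 26 splicing genes, 8 of 10 ubiquitin and stress genes and 15 of 27 chromatin regulators were broad, against 15.5% of all protein-coding genes, 2 of 20 ribosomal protein genes and 0 of 16 neutrophil and monocyte genes.

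Among blood regulators, Cebpa, the C/EBPα gene that drives granulocyte fate, had 1632 and 1559 bp in T2 and 1590 and 1516 bp in T1, with its summit on the same base in all 4 libraries. Socs1, an inhibitor of cytokine receptor signalling, had 1822 and 1849 bp in T2 and 1860 and 1860 bp in T1. The Cebpa widths overlapped between groups, and both T1 libraries were wider at Socs1. Morrbid, a long non-coding RNA that controls survival of short-lived myeloid cells, had 2160 and 2103 bp in T2 and 1923 and 2017 bp in T1, wider in both T2 libraries.

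Of the chromatin regulators, Arid1b, which codes for a BAF remodeller subunit, had 2617 and 1949 bp in T2 and 2709 and 2151 bp in T1, so replicate 1 exceeded replicate 2 in both groups. Ep300, a histone acetyltransferase gene, had 1709 and 1581 bp in T2 and 1596 and 1533 bp in T1. Kmt2a, a histone methyltransferase gene rearranged in leukaemia, had 2095 and 2098 bp in T2 and 2120 and 2010 bp in T1. None of these 3 separated the groups.

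At the splicing genes, Hnrnpa2b1 had 2161 and 2414 bp in T2 and 2141 and 1962 bp in T1, Srsf6 had 1854 and 1853 bp in T2 and 1844 and 1792 bp in T1, and both were wider in both T2 libraries. Srsf2 had 1653 and 1551 bp in T2 and 1516 and 1552 bp in T1, an overlap by 1 bp. Of the remaining list members, Ubb, a polyubiquitin gene, had 2006 and 1977 bp in T2 and 1965 and 1890 bp in T1, and again both T2 libraries were wider. Ddit3, the stress factor CHOP, had 2823 and 1575 bp in T2 and 2901 and 2807 bp in T1, so that T2 replicate 2 alone was narrow. Cdkn2c, an inhibitor of the cell cycle kinases CDK4 and CDK6, had 2054 and 1987 bp in T2 and 1996 and 1974 bp in T1. Ldha, a lactate dehydrogenase gene, had 1872 and 1831 bp in T2 and 1957 and 1780 bp in T1. The widths of these last 3 overlapped between the groups. In all, 5 of the 17 list members were wider in T2, 1 in T1 and 11 overlapped. Over all shared regions 29.7% were wider in T2 and 10.4% in T1, close to the shares among these 17.

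The starts in broad regions were rich in CpG. Over 548 of them, median GC content was 67.3% (quartiles 59.7 and 73.0) and the median ratio of observed to expected CpG was 0.856 (0.698 and 0.981). In 13144 starts of other shared regions the medians were 61.7% and 0.768, and in 19125 starts outside shared regions 47.7% and 0.215. The ratio passed 0.6 in 84.7% of broad starts, 72.9% of starts in other shared regions and 35.8% of all 32817 placed starts. It was under 0.2 at 3 broad starts, 1 each of Lpar6, Dglucy and Map4k1, against 4.05% of starts in other shared regions. The member at Map4k1 also holds CpG-rich starts, a further one of Map4k1 with a ratio of 0.986 and that of Eif3k with 1.03. Lpar6, printed above, had a ratio of 0.0868 and widths of 1843 and 1635 bp in T2 and 1619 and 1929 bp in T1. Broad starts thus lay at the CpG-rich end of a range on which other shared starts were already high, with few exceptions.

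Short motifs, searched as exact letters on both strands of the same 300 bases, were present in unequal shares of the classes. The GC box GGGCGG was in 73.5% of broad starts, 65.8% of starts in other shared regions and 35.6% of all placed starts. The core CTCF letters AGGNGGC were in 48.4%, 41.5% and 29.3% of the same classes, and the E box CACGTG in 13.7%, 10.3% and 7.15%. The ETS letters CCGGAA were in 22.4% of broad starts, 28.1% of other shared starts and 14.9% of all. The RUNX letters TGTGGT were in 7.12% of broad starts, 12.8% of other shared starts and 16.8% of all, and the GATA letters AGATAA in 3.83%, 5.58% and 11.2%. The letters CCAAT were in 34.1%, 36.6% and 37.4%, and TATAAA in 6.57%, 6.13% and 13.6%. Among the sequences printed, Plxnc1 and Hnrnpl hold GGGCGG, Runx1 and Lpar6 hold CCGGAA, and Cebpa holds TATAAA.

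The comparison of T2 with T1 asks whether the same broad regions differ in width between the groups. The choice of members set a minimum in every library but no order between the groups. It dropped the regions that were broad in 1 group alone, of which 120 were broad in both T2 lists and neither T1 list and 45 in both T1 lists and neither T2 list. Since width chose the members, the widths are given as a description with no test. Over the 486 members the median width was 1795.5 and 1751.5 bp in T2, against 1745 and 1675 bp in T1, which is 1773.5 ± 31.1 bp in T2 and 1710 ± 49.5 bp in T1 (SD, n = 2 each). Both T2 medians exceeded both T1 medians, by 63.5 bp on average. Both T2 widths exceeded both T1 widths in 192 members, or 39.5%, against 29.7% of all shared regions. The opposite order was found in 43 members, or 8.85%, against 10.4% of all shared regions. By rank of width within each list the counts were 103 for T2 and 52 for T1, or 21.2% and 10.7%, against 32.9% and 10.5% of all shared regions. T2 made up 81.7% of such members in bp and 66.5% by rank. Ranks also move with the length of a list, and the lists differ in length, so no difference between the groups is read from them. Region by region, mean width in T2 minus that in T1 had a median of 41.25 bp (quartiles −6 and 98.5) and was above 0 in 71.6% of members, against a median of 32.5 bp and 65.8% over all shared regions.

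Leaving out a library loosens the call, since 1 library then stands for its group, and changes the set of members. Without T2 replicate 1 the counts were 235 wider in T2 and 118 wider in T1 of 503 members, and without T2 replicate 2 they were 356 and 87 of 578. Without T1 replicate 1 they were 336 and 66 of 518, and without T1 replicate 2 they were 306 and 160 of 678. The share wider in T2 then ranged from 45.1% to 64.9% of members, against 38.5% to 57.1% of shared regions. The share wider in T1 ranged from 12.7% to 23.6% of members, against 16.6% to 29.6% of shared regions. In each setting more members were wider in T2 than in T1. The T2 lists are the longer ones, as given above, and the part of list length in these counts was not tested.

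**Figure D4:**
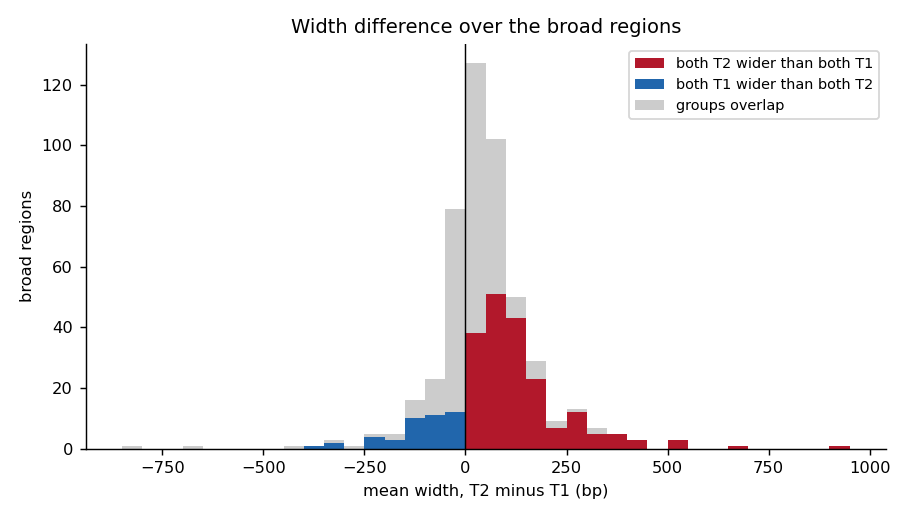
Number of broad regions (y axis) by mean width in T2 minus mean width in T1 (bp, x axis), coloured by whether both T2 libraries were wider (192), both T1 libraries were wider (43) or the groups overlapped (251). The bulk lies slightly right of 0, with the median at 41.25 bp, and long tails of few regions on both sides.

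Around gene starts, the median upstream extent of members was 731 ± 25.5 bp in T2 and 672 ± 21.2 bp in T1, and the downstream extent 1069 ± 0 bp in T2 and 1042.5 ± 17.7 bp in T1 (SD, n = 2 each). These extents are parts of the widths that chose the members, so no test is given. Region by region the median differences were 18.5 bp upstream and 17 bp downstream, close to the 14.5 and 17.5 bp of other shared regions.

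The members with the largest differences were partly those in which a peak was split in some lists. Tspan5, a tetraspanin gene, had 2626 and 2524 bp in T2 and 1641 and 1653 bp in T1, where both T1 lists held 2 peaks. Pfn1, the gene of the actin-binding protein profilin, had 2908 and 2838 bp in T2 and 2479 and 1894 bp in T1, with the region split in T1 replicate 2. Inside Tspoap1 a region had 2175 and 2262 bp in T2 and 1745 and 1660 bp in T1, again with 2 peaks in both T1 lists. Inside Nedd4l, a ubiquitin ligase gene on chromosome 18, the widths were 2599 and 1979 bp in T2 and 1835 and 1693 bp in T1, and the wide value came from T2 replicate 1. The fifth, which lies on chromosome 15 at 28392 bp from the nearest gene, had 2167 and 2596 bp in T2 and 1887 and 1827 bp in T1, with 2 peaks in every list. All 5 were wider in both T2 libraries, which is what they were picked for.

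In the other direction, Dpm1, a gene of dolichol-phosphate mannose synthesis, had 1675 and 1758 bp in T2 and 2193 and 1968 bp in T1, with 2 peaks in both T2 lists. Osm, the gene of the cytokine oncostatin M, had 1813 and 1728 bp in T2 and 2143 and 2006 bp in T1. Cdc42ep4, whose product binds the small GTPase CDC42, had 1555 and 1544 bp in T2 and 1862 and 1849 bp in T1, with close replicates in both groups. Msl2, a ubiquitin ligase gene of the MSL complex, had 1565 and 1564 bp in T2 and 1622 and 2006 bp in T1. Plekha7, which codes for a protein of cell junctions, had 1537 and 1592 bp in T2 and 1934 and 1693 bp in T1. Split peaks occurred in 8 of the 192 members wider in T2, in 1 of the 43 wider in T1 and in 17 of the 251 that overlapped. The widest gap within a group was at Jade2, with 1633 and 1813 bp in T2 and 3466 and 1595 bp in T1, where T1 replicate 1 had 1 peak and the others 2.

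The summit is the point of highest signal in a peak, and its place was compared between libraries. The distance between the strongest summits of a pair of libraries had a median of 37 bp within T2, 22 bp within T1 and 42 to 44 bp between a T2 and a T1 library. In other shared regions all pairs had medians of 24 to 29 bp. As a percent of peak width the order was the opposite, with medians of 1.14 to 2.47% in members and 3.80 to 4.96% in other shared regions. Summits of the T1 replicates lay within 100 bp of each other in 80.7% of members and 86.4% of other shared regions, although their median distance was smaller in members. Over all 4 libraries the spread of summits in members had a median of 97 bp. It was at most 100 bp in 253 members (52.1%) and over 500 bp in 94 (19.3%).

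In 19 members the summits separated by group, with summits of a group within 100 bp of each other and the groups at least 500 bp apart. This is 3.91% of members, against 0.318% of all shared regions, of which 15.6% are at most 500 bp long and could not reach it, and 1.27% of the 3236 shared regions of 1000 bp to below 1500 bp. These limits were set after the data were seen. Distances below are again from the furthest upstream start in the region. Kmt2a had its summits at −1482 and −1519 bp from that start in T2 and at −128 and −216 bp in T1. At Kmt5a, which codes for a histone H4 methyltransferase, they lay at 1177 and 1177 bp in T2 and at −71 and −80 bp in T1. Fbxo21, a gene of a ubiquitin ligase subunit, had them at 1229 and 1315 bp in T2 and at −24 and 16 bp in T1. In these 3 the T1 summits were near the furthest upstream start and the T2 summits over 1000 bp away from it.

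The reverse held at N4bp2l1, with summits at 5 and −9 bp in T2 and 1792 and 1770 bp in T1, and at Orai2, a calcium channel gene, with −28 and −27 bp in T2 and −997 and −1022 bp in T1. Of the 8 separated members with starts on 1 strand, T2 summits were nearer the furthest upstream start in 3 and T1 summits in 5. The other separated members include Ccnd2, the cyclin D2 gene, H1f10, a linker histone gene, and Gab2, an adaptor of cytokine receptors. Of the 19, 10 were wider in both T2 libraries and 2 in both T1 libraries. Over all shared regions the shares were 29.7% and 10.4%, and over all members 39.5% and 8.85%.

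**Figure D5:**
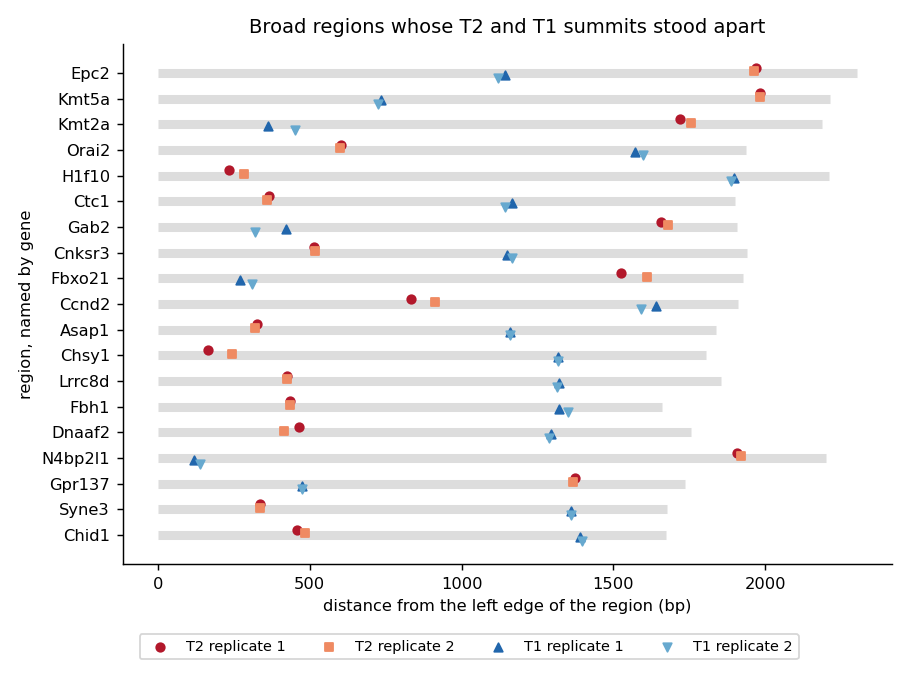
Position of the strongest summit in each library (bp from the left edge of the region, x axis) for the 19 broad regions in which T2 and T1 summits separated, with T2 and T1 libraries as separate markers. Replicates of a group fall together, within 100 bp, and the groups lie 643 bp (Cnksr3) to 1783 bp (N4bp2l1) apart, with T2 to the right in some regions and T1 in others.

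Bcl11a itself had no broad region. It held 8 shared regions, and the widest, at a start of the gene on chromosome 11 from 24080632 to 24082023, had 1200 and 954 bp in T2 and 1290 and 938 bp in T1, so that replicate 1 exceeded replicate 2 in both groups. Along the genome, chromosome 11 held the most members, 44, and chromosome 17 the highest share of its shared regions, 1.81%, while chromosome 4 had 0.638% and chromosome Y had no member. Members lay far apart, with a median gap of 2486 kb. Within 100 kb of each other were 45 members in 22 runs, of which the largest held 3. The pairs include Zmiz1 with Zmiz1os1, Stat6 with Nab2, Pfn1 with Spag7, and the histone genes H1f3 and H2bc6.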

How the data were processed

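ATAC-seq peak lists of 2 T2 and 2 T1 libraries were used, grouped by their titles. Deposited peak names begin with MG in T2 and WG in T1, and their meaning is not stated. Tools named in the submitters' processing notes are Bowtie2, SAMtools and MACS2, with the build mm10. Their versions, read filters and any shift for transposase insertion were not given in the sources used here. The authors called peaks per library, as the library prefix in the deposited peak names shows. The deposited fold is a ratio of a summit to its local background, and it describes peaks within a list. The deposited −log10 p and −log10 q give each peak's significance, and the deposited score is a whole number per peak that was not used further. These are not read counts, so depth per library is unknown and no count model was fitted. No peak was identical in any pair of lists.

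Widths are peak end minus start, taken from the widest peak of a list in a region, and the summit is that of the strongest peak. Gene starts came from RefSeq promoters on GRCm38.p6 (the assembly behind mm10), with 32817 starts. Chromosome 18 starts were not used, and 3882 of 21373 protein-coding genes elsewhere had no placed start. The planned exact permutation test over the 4 libraries is given for the number of broad peaks and not for widths, which chose the members. Analyses used Python 3.11.15, numpy 2.4.6, pandas 2.3.3 and scipy 1.17.1 (figures, matplotlib 3.10.9), and the scripts were tested on simulated data. Wilson intervals (95%) cover counting error only. Genes were named by a rule: the 15 members with the largest narrowest width, up to 4 per gene list, the 5 largest differences per direction without overlap, 3 on each side of 1500 bp, and Bcl11a. Promoters of predicted genes were left out, which departs from that rule. Other names, including those with inner starts, separated summits, split peaks or close neighbours, were picked after their values had been seen. The members and lists were chosen with earlier results of these data known. Alternatives were other widths, stricter peaks, joined peaks, an equal number of peaks per list, ranks, other start windows and leaving out each library.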

Additional observations from a re-analysis of the deposited data

Results flagged for a closer look

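Peaks on unplaced or random sequences, which the regions leave out, numbered 53 over the 4 lists, with 12 and 14 in T2 and 15 and 12 in T1. Of these, 4 were at least 1500 bp wide, 1 in each list, and all 4 lay on the same random sequence of chromosome 4. They measured 1757 and 1748 bp in T2 and 1676 and 1668 bp in T1, so this sequence holds a peak that would pass the width limit in every library. It is a signal outside the regions described above. Groups of 2 libraries are too small to single out a library within a group, and no second contrast exists in which the difference between T2 and T1 could be compared.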

How the results depend on the processing

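The number of broad regions depended on the width limit, with 3722 at 1000 bp, 50 at 2000 bp and 3 at 3000 bp, and 315 with an equal number of widest peaks (747) per list. Counts wider in T2 were 1319, 16, 1 and 126 in these settings and 103 by rank. Counts wider in T1 were 292, 10, 0 and 19. Over all shared regions in the main setting, 29.7% were wider in T2 and 10.4% in T1. The median width difference, T2 minus T1, was 2 bp over the 3 regions at 3000 bp. The share with a gene start was 33.3% of the 3 regions at 3000 bp and 57.8% with a start within 500 bp of the centre, a setting chosen after the data were seen. List genes with a broad start numbered 104 at 1000 bp and 3 at 2000 bp. At 2000 bp, median GC was 64.7% and the CpG ratio 0.820. Leaving out a library gave 503 to 678 regions, 235 to 356 wider in T2, 66 to 160 wider in T1, a width difference (T2 minus T1) of 31.75 to 95.5 bp and a start share of 72.5 to 73.7%. All 486 members overlapped a kept region in each of these leave-one-out settings, under a −log10 q minimum of 5, with a common stretch of 500 bp and with gaps under 200 bp joined, and 483 did under a −log10 q minimum of 10. Without the 2 widest members, left out after the data were seen, the width difference was 63.25 bp and 192 and 43 members were wider in T2 and T1. Of the main values, 48 in other settings stayed within the limits set for them (1.5 times for a count, the larger group SD for a width difference, the interval for a share) and 27 did not. Of the 25 named members with a width difference, 8 had overlapping groups, and 5 of these changed sign when a library was left out, namely those at AY036118 and LOC108167694, Hnrnpl, Cdc14a and Crlf2. The other 17, whose groups do not overlap, cannot change sign in this way. With replicate number as a block, the width difference was 63.5 bp (no test is given). The labels give no shared animal or day for a number, so this pairing is nominal. Depth is unknown, and how far widths follow it was not tested.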
